A study of Rattus norvegicus with 60 samples.

Results

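The effect of prenatal ethanol exposure was examined in the livers of adult rats that had not had a stroke. Of the 60 libraries in the series, 15 were stroke-naive livers, chosen by their titles alone: 8 from offspring of dams given vaporized ethanol and 7 from offspring of dams kept in room air. The other libraries were livers of animals after stroke, and mesenteric fat with and without stroke. All animals were Sprague-Dawley rats aged 5 months. Their dams had spent 12 days of pregnancy, gestational days 8 to 20, in vapor chambers with ethanol or with room air, and the naive animals were littermates of animals that underwent middle cerebral artery occlusion. The groups held 4 control females, 3 control males, 4 ethanol-exposed females and 4 ethanol-exposed males; all were bred in house from purchased rats. The labels did not name the dam or litter of any animal, so p-values here measure the spread between animals, some of which may share a dam.

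The adult liver no longer meets ethanol in this design; the comparison asks what can be measured months after the exposure of the fetus. Hepatocytes burn fatty acids in mitochondria and peroxisomes, a program driven by the receptor PPAR alpha, package lipids into lipoproteins, and answer to glucocorticoid and growth hormone, the hormone that sets most of the female and male patterns of rat liver genes. Prenatal exposures are studied in the liver because fetal growth and stress hormones act on these same programs.

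In edgeR no gene passed correction over the genome, and in DESeq2 a few did. Of 15551 genes tested, edgeR called 0 (0%) at an adjusted p under 0.05, while 616 (3.96%) had an unadjusted p under 0.05, where 5% of the genes would be 777.6. Of these, 303 were higher (1.95%) and 313 lower (2.01%) after ethanol. Of the same 15551 genes DESeq2 called 4 (0.0257%), all higher after ethanol: Slc16a4, Paqr7, Nrep and Hao2. DESeq2 left genes of low counts, Fkbp5 and Lipo1 among them, without an adjusted p. It thus adjusted over fewer genes than edgeR, and its calls and those of edgeR do not stand at the same number of tests. The authors' deposited table held an adjusted p for 7332 genes, of which 5 lay under 0.05, namely the same 4 and Afm. The leading genes are therefore described by their values in each animal and by direction, not as established changes.

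The libraries were liver by their markers. Albumin RNA (Alb) averaged 65660 ± 14080 CPM (counts scaled to a common library total after ribosomal RNA genes were left out; SD, n = 7) in controls and 73840 ± 9812 (n = 8) after ethanol, and all 12 hepatocyte markers were tested. Sex was read from the letter F or M in the titles. Counts of 3 Y-linked genes were 0 in every F liver and 552 to 1364 in the M livers, so these letters matched. Depth was 7.72 to 30.4 M counts per library (M, mega), with control female 2 the shallowest at 7.72 M. Nuclear ribosomal RNA took 0.626% to 44.9% of the counts: control male 3 had 44.9%, the 4 ethanol males 10.7% to 18.8%, and the other control males 1.54% and 2.15%. Depth, both ribosomal RNA shares and the haemoglobin share were compared by their means (exact permutation within sex, 2450 arrangements, two-sided). No mean differed detectably between exposures (p of 0.233 to 0.984 in that test, adjusted 0.748 to 0.984). Control male 3 weighed on the control mean of the nuclear share. The median nuclear share was 2.2% in controls and 9.74% after ethanol, a gap that a test of means could not judge. Some livers stood apart: control female 2 in the multidimensional scaling plot, and ethanol male 2, which was lowest in macrophage, interferon and MHC class II genes. Results that rest on them are given with and without them.

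The promoters of the leading pair, Slc16a4 and Paqr7, are shown because these genes had the smallest p-values and were higher together in the exposed livers. They are RefSeq sequences of the GRCr8 build, each 250 bases before to 50 bases after the annotated start, read 5′ to 3′ on the gene's strand: Slc16a4 at chr2:197599190-197599489 and Paqr7 at chr5:151992599-151992898, both on the plus strand. Capitals mark a CCAAT box in Slc16a4 (base 45) and a GC box on the opposite strand in Paqr7 (base 220).
Slc16a4: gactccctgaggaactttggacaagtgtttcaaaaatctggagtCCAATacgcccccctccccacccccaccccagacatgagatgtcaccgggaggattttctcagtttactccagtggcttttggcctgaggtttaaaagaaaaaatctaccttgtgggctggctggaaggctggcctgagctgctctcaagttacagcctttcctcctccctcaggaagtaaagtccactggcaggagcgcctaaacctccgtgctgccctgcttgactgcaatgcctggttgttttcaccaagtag
Paqr7: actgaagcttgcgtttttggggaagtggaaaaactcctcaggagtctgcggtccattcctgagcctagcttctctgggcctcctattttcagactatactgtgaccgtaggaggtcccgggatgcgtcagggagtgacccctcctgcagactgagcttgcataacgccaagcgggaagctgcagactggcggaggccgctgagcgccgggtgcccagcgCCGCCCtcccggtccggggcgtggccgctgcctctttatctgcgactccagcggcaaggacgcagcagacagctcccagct

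Searched on both strands, CCAAT occurred in 37.7% of 27457 rat promoters of this length and the GC box GGGCGG in 34.9%. Neither promoter held the nuclear receptor half-site AGGTCA, present in 15.7% of promoters, or TATAAA, present in 14.3%. No searched motif occurred in both promoters, and a match describes letters only.

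Slc16a4, a member of the monocarboxylate transporter family, had the smallest p-value of all genes. The 4 control females measured 9.66, 9.02, 8.29 and 7.5 CPM, and the 4 exposed females 15.9, 15.9, 10.1 and 24. The 3 control males measured 25.2, 24.8 and 36.7 CPM, and the 4 exposed males 43, 49.2, 52.4 and 48.5. Within each sex no exposed liver overlapped the controls, although exposed female 3 came close. The level was 1.79-fold higher after ethanol (log2 change 0.84 ± 0.15 SE, 95% interval 0.53 to 1.15, edgeR adjusted p = 0.322), in 8 of 8 exposed livers against the mean of their sex. DESeq2 gave an adjusted p of 0.000614, and the authors' deposited table gave 0.000167 with a log2 change of 0.67. The log2 changes in the authors' deposited table were smaller than those of DESeq2 here, for Nrep 0.68 against 1.53, and how they were estimated is not given in the sources used here. Without exposed female 3, edgeR gave a log2 change of 0.92 and an adjusted p of 0.0248; without the filter on low counts, 0.85 and 0.0455.

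Paqr7 encodes membrane progestin receptor alpha. The control females measured 94.3, 87, 94.6 and 66.5 CPM and the exposed females 145, 146, 147 and 153, with no overlap and a spread of 3.48 CPM (SD) among the exposed. The control males measured 183, 148 and 168 CPM and the exposed males 205, 239, 318 and 167, so that the lowest exposed male lay among the controls. The log2 change was 0.64 ± 0.12 SE (1.56-fold, 95% interval 0.38 to 0.91, edgeR adjusted p = 0.527). DESeq2 gave an adjusted p of 0.00349, and the authors' deposited table gave 0.00241.

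Hao2, a peroxisomal oxidase of 2-hydroxy fatty acids that is far higher in male than in female rat livers, had the third smallest p among the direction-consistent genes that were higher after ethanol. The control females measured 14.6, 13.3, 24.4 and 26.9 CPM and the exposed females 48.9, 51.6, 23.3 and 32. The control males measured 219, 303 and 180 CPM and the exposed males 307, 495, 414 and 365. The males did not overlap and exposed female 3 lay among the control females. The log2 change was 0.87 ± 0.20 SE (1.82-fold, edgeR adjusted p = 0.996), and DESeq2 gave an adjusted p of 0.0272.

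Nrep, named for its part in neuronal regeneration, had the largest change of the leading genes. The control females measured 3.16, 1.69, 12.1 and 4.71 CPM and the exposed females 19, 26.1, 8.38 and 13. The control males measured 15.9, 29.7 and 21.2 CPM and the exposed males 59.8, 55.8, 89.5 and 38.9. All exposed males lay above all control males, and exposed female 3 lay below the highest control female. The log2 change was 1.51 ± 0.34 SE (2.84-fold, 95% interval 0.77 to 2.25, edgeR adjusted p = 0.996), with an adjusted p of 0.00349 in DESeq2.

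**Figure D1:**
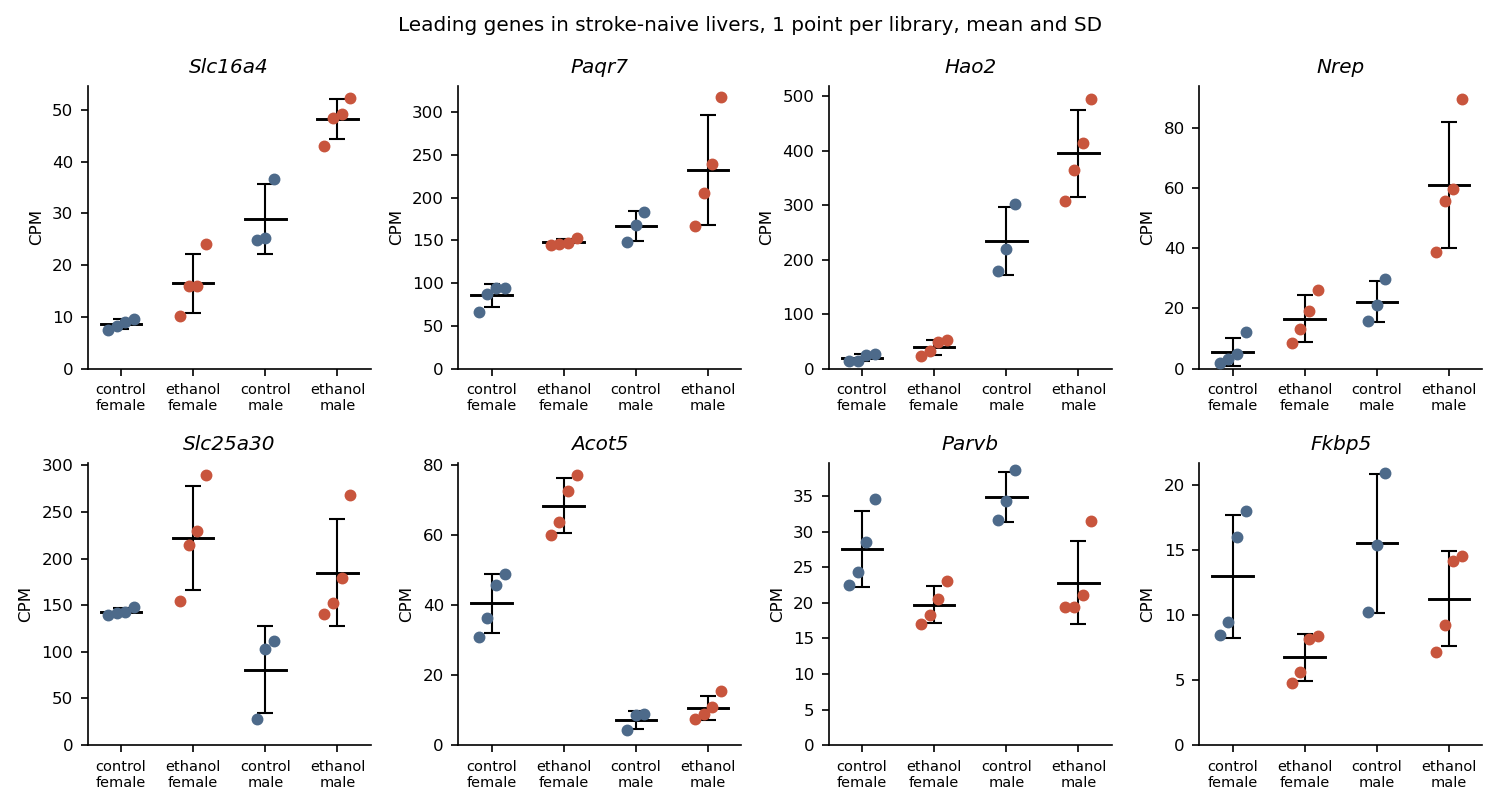
CPM (linear axis from 0) of 8 leading genes in each naive liver, by exposure and sex; points are libraries, bars the mean with its SD (3 or 4 livers a group). Slc16a4 and Slc25a30 do not overlap within either sex, while Hao2, Nrep, Parvb and Fkbp5 overlap in 1 sex or both.

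Direction was the same in every exposed animal for a small share of genes. A gene was counted as direction-consistent when all 8 exposed livers lay on 1 side of the control mean of their sex. This held for 441 genes (2.84% of 15551), 260 of them higher (1.67%) and 181 lower (1.16%). Among the 12251 genes whose log2 CPM averaged 1 or more, 202 were higher (1.65%) and 128 lower (1.04%). Complete separation within both sexes was rarer, in 13 genes (0.0836%), 7 higher (0.045%) and 6 lower (0.0386%). In the better expressed set these were Slc16a4, Slc25a30, Slc31a1, St3gal6 and Lamtor5 on the higher side (0.0408%) and Crim1 on the lower side (0.00816%). The exposure labels can be arranged within sex in only 2450 ways, so among 15551 genes some separate without any effect. The 13 separated genes are therefore described by their values and not read as a result.

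**Figure D2:**
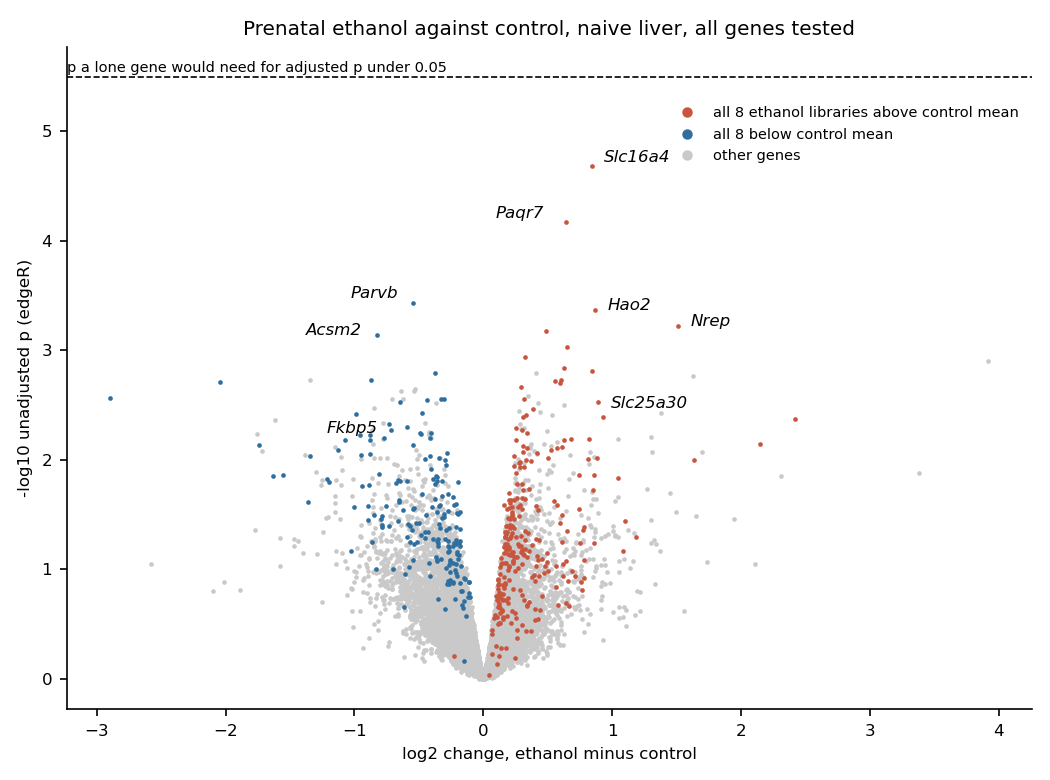
Log2 change (ethanol minus control) against the negative log10 of the unadjusted edgeR p for all 15551 genes; colours mark the 260 and 181 direction-consistent genes. Every gene lies below the dashed line, the p of 3.22e-06 that a lone gene would need to be called.

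The 12 direction-consistent genes with the smallest p on the higher side also held the 8 described next, each with an adjusted p of 0.996 in edgeR. Agmo, which cleaves ether lipids, had a log2 change of 0.49 ± 0.12 SE, from a control range of 127 to 413 CPM (median 191) to 199 to 600 (median 329). Acot5, known in the mouse as a peroxisomal acyl-CoA thioesterase, measured 30.9, 36.4, 45.9 and 49 CPM in control females and 72.7, 60, 77.2 and 63.9 in exposed females. Acot5 was low in males, at 4.28 to 8.94 CPM in controls and 7.42 to 15.4 after ethanol, and its log2 change was 0.65 ± 0.16 SE. Females therefore did not overlap for Acot5 and males did. Ces1c, a carboxylesterase, had a control median of 573 CPM and an exposed median of 1030, with a log2 change of 0.60 ± 0.17 SE; control female 1, at 981 CPM, lay among the exposed livers. Lipo1, of the lipase family, lay between 3.95 and 9.03 CPM in controls and 8.95 and 12.1 after ethanol (log2 change 0.55 ± 0.15 SE), so the groups met at their edges. Slc13a4, a sodium and sulfate cotransporter, had a log2 change of 0.84 ± 0.22 SE, with control values of 27.1 to 58.7 CPM and exposed values of 34.8 to 105. Gcnt4, a glycosyltransferase of O-linked sugars, had a log2 change of 0.63 ± 0.17 SE. Zdhhc23, a palmitoyltransferase, had a log2 change of 0.60 ± 0.16 SE. Cmtm6, which in human cells keeps PD-L1 at the cell surface, had a smaller change of 0.32 ± 0.08 SE.

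Slc25a30, a carrier of the inner mitochondrial membrane, was separated in both sexes. Control females lay between 140 and 148 CPM, and exposed females measured 215, 290, 154 and 230. Control males measured 112, 27.4 and 103 CPM, and exposed males 268, 179, 141 and 152. The female controls were tightly grouped, and control male 2 was far below the other male controls. The log2 change was 0.89 ± 0.25 SE (1.86-fold, edgeR adjusted p = 0.996). The other separated genes had smaller differences. Slc31a1, the copper importer of the plasma membrane, lay at 201 to 242 CPM in controls and 239 to 320 after ethanol (log2 change 0.25 ± 0.08 SE). St3gal6, a sialyltransferase, had a log2 change of 0.29 ± 0.08 SE, and Lamtor5, a subunit of the Ragulator complex on lysosomes, 0.33 ± 0.11 SE. Afm, which encodes the plasma protein afamin, a vitamin E carrier, was named after its values were seen: its log2 change was 0.31 ± 0.09 SE in edgeR, and the authors' deposited table gave an adjusted p of 0.0272.

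The 12 direction-consistent genes with the smallest p on the lower side each had an adjusted p of 0.996 in edgeR. Parvb, beta-parvin of integrin adhesions, measured 34.7, 24.4, 28.6 and 22.6 CPM in control females and 17.1, 18.3, 23.1 and 20.6 in exposed females. In males it measured 31.7, 38.7 and 34.4 CPM in controls and 31.5, 21.1, 19.4 and 19.4 after ethanol. Only exposed female 3 overlapped the controls of its sex; the log2 change was -0.54 ± 0.12 SE (edgeR adjusted p = 0.996). Acsm2, a mitochondrial ligase of medium-chain fatty acids, measured 66.3, 73, 47.7 and 78.9 CPM in control females and 29.3, 37.8, 45.7 and 18.7 in exposed females. In males it measured 10.4, 6.21 and 4.28 CPM in controls and 3.98, 5.47, 4.88 and 5.32 after ethanol. Females were thus separated and males overlapped, with a log2 change of -0.83 ± 0.20 SE. Crim1, a membrane protein that binds bone morphogenetic proteins, lay between 42.4 and 61 CPM in controls and 31.3 and 47.5 after ethanol, with a log2 change of -0.33 ± 0.09 SE. Capn2, a calpain protease subunit, had a log2 change of -0.30 ± 0.09 SE and Baiap2, an adaptor of the actin cytoskeleton, -0.38 ± 0.10 SE. Spsb1, a SOCS box protein, had -0.65 ± 0.19 SE and Tgif1, a homeobox repressor of TGF beta signalling, -0.48 ± 0.14 SE. Tbc1d9, with a Rab GTPase activating domain, had -0.40 ± 0.13 SE and Cyria, a Rac1 binding protein, -0.49 ± 0.16 SE. Olr35, annotated as an olfactory receptor, had -0.44 ± 0.13 SE.

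Fkbp5, a co-chaperone that glucocorticoids induce and that restrains the glucocorticoid receptor, was also lower in every exposed liver than the control mean of its sex. The control females measured 16, 8.46, 9.42 and 18 CPM and the exposed females 4.78, 8.41, 8.13 and 5.58. The control males measured 10.2, 20.9 and 15.4 CPM and the exposed males 7.17, 14.5, 9.25 and 14.1. Females did not overlap, with 8.41 CPM next to 8.46, and males did. The log2 change was -0.73 ± 0.22 SE (1.66-fold lower, 95% interval -1.20 to -0.26, edgeR adjusted p = 0.996). Over all 18 glucocorticoid-responsive genes, Fkbp5 included, 11 lay above 0 and 7 below, the list median was 0.18, and by sex it was -0.14 in females (13 of 17 below 0) and 0.29 in males (11 of 18 above 0). Leaving out 1 liver at a time gave medians of 0.0093 to 0.25. The receptor gene Nr3c1 had a log2 change of 0.28 ± 0.13 SE (unadjusted p under 0.05). Tat, a liver enzyme induced by glucocorticoids, had a log2 change of -0.40 ± 0.19 SE, with -0.81 in females and 0.13 in males. The difference of Tat between the sexes had an adjusted p of 0.9999 in edgeR. Zbtb16, another induced gene, had -0.81 ± 0.47 SE. The 18 members ran from -0.81 to 0.51.

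Among the 30 lists of pathway genes, 0 members were called. Fatty acid oxidation was the list whose members lay most evenly on the higher side: 30 of 31 had a log2 change above 0, against 49.6% of all genes (50.4% lay below 0), and the list median was 0.19, against -0.001651 over all genes. In this list 6 members (19.4%, against 3.96% of all genes) had an unadjusted p under 0.05, and all 6 were higher. Hadhb, a subunit of the mitochondrial trifunctional protein, averaged 296 ± 38.1 CPM in controls (SD, n = 7) and 361 ± 51.0 (n = 8) after ethanol, a log2 change of 0.29 ± 0.11 SE. Eci1, which isomerizes unsaturated acyl-CoA, had 0.33 ± 0.13 SE, Bdh1 of ketone body synthesis 0.27 ± 0.12 SE, Decr1, the dienoyl-CoA reductase, 0.19 ± 0.09 SE, and Crot, the carnitine octanoyltransferase of peroxisomes, 0.45 ± 0.20 SE. Cpt1a, the gate of mitochondrial fatty acid entry, had 0.25 ± 0.18 SE. Ppara, which encodes the receptor that drives this program, was the member below 0: it was under the control mean in 8 of 8 exposed livers, with a log2 change of -0.26 ± 0.14 SE (95% interval -0.55 to 0.02). The median was 0.21 in females and 0.09 in males. Without control female 2 and ethanol male 2, 28 of 31 lay above 0 and the median was 0.13.

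Lipoprotein and lipid transport genes had 23 of 27 members above 0, a median of 0.15 and 4 members (14.8%) with an unadjusted p under 0.05, all higher. Apob, the structural protein of very low density lipoprotein, averaged 18920 ± 3766 CPM in controls and 24470 ± 4244 after ethanol (log2 change 0.36 ± 0.12 SE, edgeR adjusted p = 0.996, above the control mean of its sex in 7 of 8 livers). Scarb1, the high density lipoprotein receptor, had 0.20 ± 0.08 SE, in 8 of 8 livers, Lcat, which esterifies plasma cholesterol, 0.18 ± 0.08 SE, and Apoa2, of high density lipoprotein, 0.32 ± 0.15 SE. Respiratory chain subunits had 35 of 45 members above 0, with a median of 0.08 and 1 member under an unadjusted p of 0.05, Sdhc of complex II at 0.17 ± 0.08 SE. Heat shock genes had 14 of 15 above 0 with a median of 0.07; without the 2 livers that stood apart, 7 of 15 lay above 0.

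**Figure D3:**
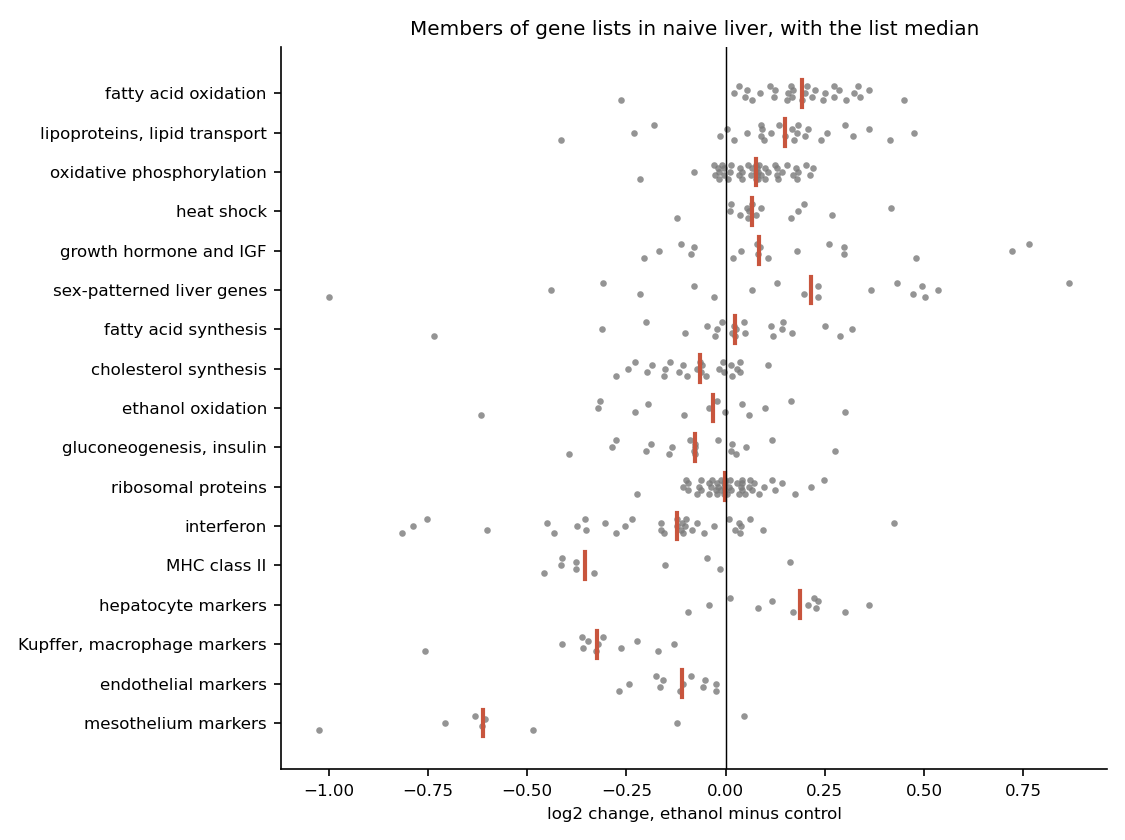
Log2 change (ethanol minus control) of each tested member of 17 gene lists in naive liver (grey points) with the list median (red bar). The medians run from -0.61 for mesothelium markers to 0.22 for sex-patterned liver genes.

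Genes of ethanol metabolism lay on opposite sides in the sexes, without a test of that difference for the list. Of 14 genes that oxidize ethanol, acetaldehyde and acetate, 5 lay above 0 and 9 below, the median was -0.03 and 0 had an unadjusted p under 0.05. In females 10 of 14 lay above 0 (median 0.24) and in males 10 of 14 below 0 (median -0.21); without the livers that stood apart, 8 of 14 lay above 0 (median 0.053). Adh1, the main alcohol dehydrogenase, averaged 1644 ± 501.5 CPM in controls and 1574 ± 568.7 after ethanol (log2 change -0.11 ± 0.22 SE). The Adh1 difference was 0.38 in females and -0.56 in males, with an adjusted p of 0.9999 for the difference between the sexes (edgeR). Cyp2e1, the ethanol-inducible cytochrome, had 0.30 ± 0.19 SE, and Aldh2, which clears acetaldehyde in mitochondria, -0.04 ± 0.11 SE. The 95% interval of Aldh2 was -0.27 to 0.19.

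Sterol synthesis genes had 19 of 25 members below 0, with a median of -0.06 and 0 under an unadjusted p of 0.05. Without the livers that stood apart 15 of 25 lay below 0 (median -0.016), and without control male 3, the liver highest in ribosomal RNA, the median was -0.15. Lipogenic genes were wide: Scd, the stearoyl-CoA desaturase, had a log2 change of 0.05 ± 0.60 SE and Fasn, fatty acid synthase, -0.10 ± 0.40 SE, so that their intervals were wide. Cyp7a1, which starts the main route from cholesterol to bile acids, ranged from 25.8 to 416 CPM among the exposed females alone (log2 change 0.77 ± 0.68 SE); exposed female 3 held the 416 CPM, and without it the log2 change was -0.11. Gluconeogenic and insulin genes had 13 of 19 members below 0 (median -0.08). Ribosomal protein genes split 23 above and 25 below 0 (median -0.00). Clock genes split 8 and 10, one-carbon and DNA methylation genes 15 and 12, and imprinted genes 5 and 5.

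Of 18 growth hormone and insulin-like growth factor genes, 13 lay above 0 with a median of 0.08, and leaving out 1 liver at a time gave medians of 0.022 to 0.15. Igfals, which carries insulin-like growth factors in plasma, averaged 389 ± 71.1 CPM in controls and 469 ± 97.8 after ethanol, above the control mean of its sex in 8 of 8 livers (log2 change 0.30 ± 0.12 SE, edgeR adjusted p = 0.996). Igf1 had 0.30 ± 0.20 SE. Of 18 sex-patterned genes, 12 lay above 0 with a median of 0.22, and 2, Hao2 and Ust5r, an organic ion transporter gene, had an unadjusted p under 0.05 (11.1%). The male-patterned Cyp2c11, of steroid hydroxylation, had 0.50 ± 0.27 SE, and the female-patterned Cyp2c12 0.07 ± 0.27 SE. Cyp3a2, another male-patterned cytochrome, was named after its values were seen. Its raw counts were 2, 0, 3 and 2 in the control females and 19, 16, 3 and 14 in the exposed females, against 31620 to 77577 counts in the males. In females after stroke the counts were 6, 6, 8 and 8 in controls and 55, 19, 25 and 14 after ethanol. In naive males the CPM overlapped, at 1910 to 5100 in controls and 2520 to 5430 after ethanol. In males after stroke they did not, at 980 to 2270 CPM in controls and 2460 to 3400 after ethanol. The gene passed the filter on low counts through the males, and the naive female controls were at or under 3 counts, so no fold over both sexes is given. In naive livers its edgeR adjusted p was 0.996, and in 1 fit averaged over naive and stroke livers it was 0.0199. That fit gave the few counts of the females the same weight as the males, so its p carries the same limit.

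The members with the smallest p in the remaining lists each had an adjusted p of 0.996 in edgeR; those below were chosen from their lists by that p. On the higher side, Amacr, a racemase of bile acid and branched fatty acid oxidation, had a log2 change of 0.44 ± 0.18 SE, Hspb1, a small heat shock protein, 0.42 ± 0.17 SE, and Elovl5, a fatty acid elongase, 0.32 ± 0.17 SE. Aldh3a2, a fatty aldehyde dehydrogenase, had 0.17 ± 0.10 SE and the ribosomal protein gene Rpl15 0.14 ± 0.07 SE. The complement gene C6 had 0.52 ± 0.26 SE and the clock gene Clock 0.18 ± 0.12 SE. On the lower side, Ccn2, a matricellular growth factor, was below the control mean of its sex in 8 of 8 exposed livers (log2 change -0.55 ± 0.23 SE). Id1, a target of bone morphogenetic proteins, had -0.96 ± 0.45 SE, with 34.7 CPM in control female 2 and 2.85 to 22.9 in the other controls. Nupr1, a stress-induced gene, had -0.40 ± 0.17 SE, Edem1, of protein degradation from the endoplasmic reticulum, -0.38 ± 0.19 SE, Klf2 -0.44 ± 0.24 SE and Tnfaip3 -0.37 ± 0.20 SE. Birc5, of cell division, had -0.86 ± 0.32 SE, Oas3, an interferon-induced enzyme, -0.79 ± 0.35 SE, Cd74, the MHC class II chaperone, -0.46 ± 0.24 SE, Cyp2d5, a drug-metabolizing cytochrome, -0.45 ± 0.16 SE and Pmvk of sterol synthesis -0.23 ± 0.16 SE. Hamp, which encodes hepcidin, had -0.28 ± 0.15 SE, Hal, the histidine ammonia lyase, -0.24 ± 0.15 SE, Dnmt1, the maintenance DNA methyltransferase, -0.20 ± 0.11 SE, the transporter Abcc4 -0.19 ± 0.10 SE and the imprinted Peg3 -0.18 ± 0.10 SE. Of the other set genes, A2m of the acute phase had 0.76 ± 0.42 SE, the hormone gene Fgf21 0.36 ± 0.31 SE and Srebf1, which drives lipogenesis, 0.29 ± 0.37 SE. Pck1 of gluconeogenesis had -0.14 ± 0.13 SE, G6pc1 -0.08 ± 0.41 SE, Igfbp1 -0.08 ± 0.39 SE, Hp 0.09 ± 0.16 SE, Lcn2 0.23 ± 0.76 SE and the cyclin gene Ccnd1 0.25 ± 0.18 SE.

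Markers of macrophages lay lower after ethanol without any call. All 12 Kupffer cell and macrophage markers had a log2 change below 0, with a median of -0.32, and 1 of them, C1qa, had an unadjusted p under 0.05 (log2 change -0.41 ± 0.20 SE, edgeR adjusted p = 0.996). Their summed level was 606 to 1043 CPM in controls (median 728) and 248 to 857 after ethanol (median 610). Clec4f, a lectin of Kupffer cells, had -0.36 ± 0.24 SE, Cd163 -0.31 ± 0.17 SE and Marco -0.76 ± 0.40 SE. The lowest value was ethanol male 2; without it and control female 2 the median was -0.15, 11 of 12 lay below 0 and 0 had an unadjusted p under 0.05. By sex the median was -0.46 in females and -0.15 in males. In bulk tissue, fewer cells of a type and less RNA per cell cannot be told apart. Hepatocyte markers lay the other way, 10 of 12 above 0 with a median of 0.19, and the part of cell composition in the lists above was not tested. After stroke, 1 of 12 macrophage markers lay above 0 and the median was -0.06.

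Other immune and vascular lists also moved when that pair of livers was left out. MHC class II genes had 9 of 10 below 0 and a median of -0.35, and 6 of 10 with a median of -0.32 without the 2 livers; by sex the median was -0.63 in females and 0.035 in males. Interferon-stimulated genes had 27 of 35 below 0 and a median of -0.12; by sex the medians were 0.04 in females and -0.43 in males, and without the 2 livers the median was -0.04. Their mean level on the log2 CPM scale was 1.91 in ethanol male 2 and 2.56 in ethanol female 3, and 3.42 to 4.41 in the other livers. Endothelial markers had 12 of 12 below 0 with a median of -0.11, and the direction turned to 0.05 without the 2 livers, where control female 2 had the highest level. T and NK cell markers had 5 of 7 below 0 (median -0.25), and 4 of 7 (median -0.058) without the pair. Stellate cell markers had 8 of 11 below 0 (median -0.11), and 6 of 11 (median -0.060) without it.

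**Figure D4:**
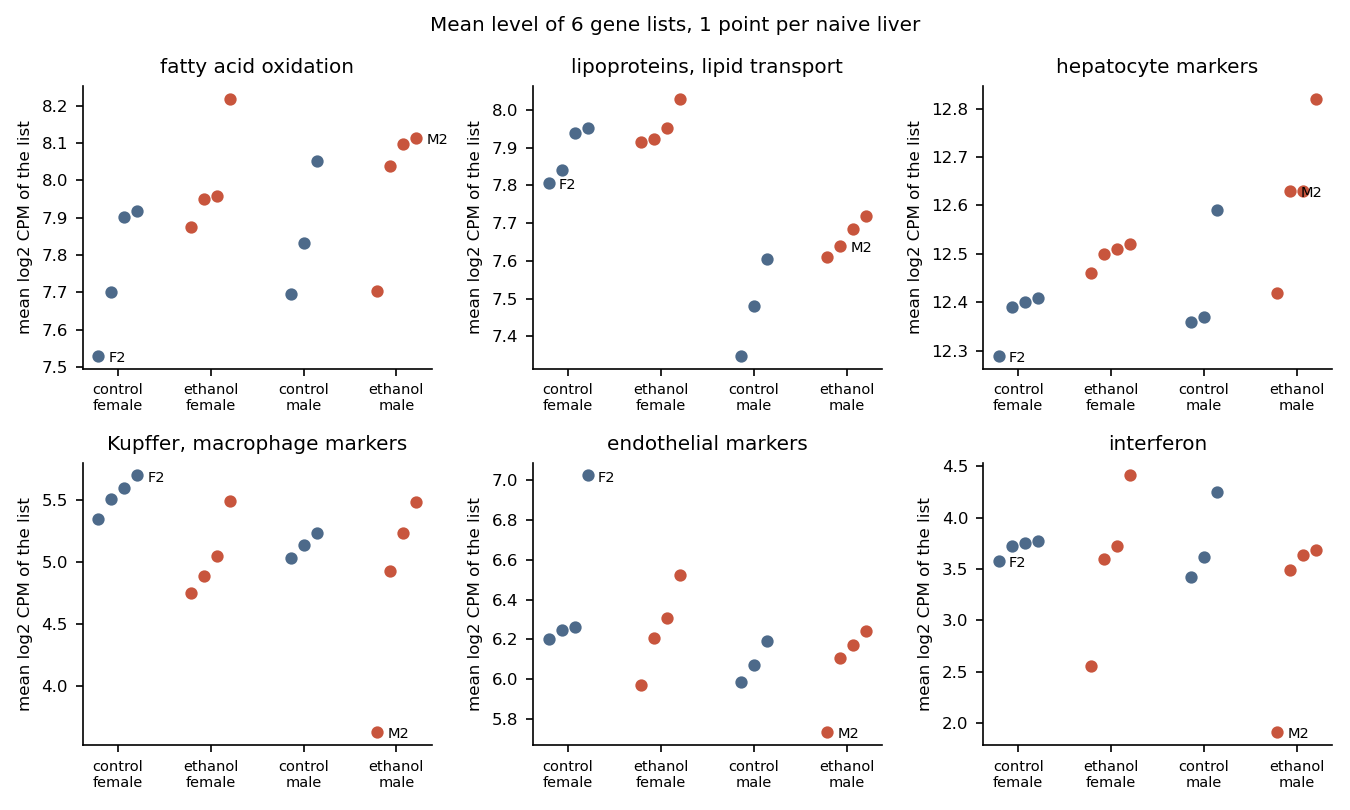
Mean log2 CPM of 6 gene lists in each naive liver, by exposure and sex; F2 is control female 2 and M2 ethanol male 2. M2 is the lowest liver for macrophage, endothelial and interferon genes, and F2 the highest for endothelial genes and the lowest for fatty acid oxidation genes.

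Traces of neighbouring tissue were small, and the lists of other tissues did not share a direction. Mesothelium markers, which mark the liver surface, had 7 of 8 members below 0 and a median of -0.61, with a summed level of 15.79 to 27.97 CPM in controls and 11.39 to 28.63 after ethanol; Msln had -0.71 ± 0.20 SE (edgeR adjusted p = 0.996). Fabp4, a fatty acid binding protein of fat cells and macrophages, held 6 to 19 raw counts in the 7 controls and 0 to 5 in the 8 exposed livers. Its CPM were separated in both sexes (log2 change -2.04 ± 0.56 SE, adjusted p = 0.996 in edgeR). Fabp4 passed the filter on low counts through the controls alone, so its lower level after ethanol was partly set by that filter. After stroke it held 2 to 45 raw counts in controls and 0 to 70 in exposed livers. The other 4 tested adipocyte markers lay between -0.29 and 0.11. Pancreas acinar markers had 2 of 3 above 0 (median 0.12). After stroke, 3 of 6 tested mesothelium markers lay above 0 (median 0.07).

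The exposure effect was looked up in the 15 livers of animals after stroke, which share no library with the naive livers. The labels call the naive animals their littermates, without saying which animals share a litter, so the livers are separate but the litters are not. There edgeR called 0 of 14857 genes (372 at an unadjusted p under 0.05, 2.5%, with 1.2% higher and 1.31% lower) and DESeq2 called 1 (0.00673%). Of the 576 tested genes that had an unadjusted p under 0.05 in naive livers, 353 (61.3%) had the same sign after stroke, against 54% of 14725 genes in all. Both p-values lay under 0.05 with the same sign for 27 genes and with opposite signs for 5, against 241 and 123 of all genes by the stroke p alone. Some lists turned direction after stroke, where 31 of 35 interferon, 25 of 25 sterol synthesis and 4 of 15 heat shock genes lay above 0. Others kept it, with 26 of 31 fatty acid oxidation and 19 of 27 lipoprotein genes above 0. The difference was not tested for lists.

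Among the leading genes, Paqr7, Slc25a30 and Acot5 had an unadjusted p under 0.05 in both sets of livers. After stroke Paqr7 lay at 21.8 to 55.9 CPM in controls (median 43.6) and 52.4 to 119 after ethanol (median 72.2), overlapping only at the edge, with a log2 change of 0.74 ± 0.18 SE (edgeR adjusted p = 0.9999). Averaged over naive and stroke livers in 1 fit, Paqr7 had a log2 change of 0.69 and an edgeR adjusted p of 0.0176. The other of the 2 genes called there was Cyp3a2, whose counts in females were few. Slc25a30 lay at 20 to 41.8 CPM in controls after stroke and 31.3 to 104 after ethanol (log2 change 0.99 ± 0.26 SE, edgeR adjusted p = 0.9999). Acot5 had 0.61 ± 0.26 SE. Some others of the 27 genes were picked after their values were seen. Fitm2, which helps form lipid droplets, had 0.39 in naive and 0.27 in stroke livers. Elovl2, which elongates polyunsaturated fatty acids, had 0.37 and 0.72, and Scarb1 0.20 and 0.47. Paqr9, a relative of Paqr7, had 0.70 and 0.90. The 27 also held genes lower in both sets, such as Rragd (-0.96 and -1.04) and Arhgap33 (-0.58 and -0.58). No shared function of the 27 was tested. Slc16a4 had 0.41 ± 0.20 SE after stroke (95% interval -0.0041 to 0.83), Nrep 0.82 ± 0.59 SE and Hao2 0.13 ± 0.26 SE.

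The direct test of whether the exposure effect differed between naive and stroke livers called 0 of 16065 genes in edgeR and 0 in DESeq2, with 463 (2.88%) at an unadjusted p under 0.05. Some named genes had different values in the 2 sets of livers. Parvb had -0.54 in naive and 0.03 in stroke livers (difference 0.62 ± 0.18 SE). Fkbp5 had -0.73 and 0.47 (difference 1.14 ± 0.47 SE), and Ppara -0.26 and 0.48 (difference 0.73 ± 0.23 SE). Lipo1 had 0.55 and -1.01 (difference -1.62 ± 0.46 SE). Its control males after stroke measured 7.66, 19.8 and 102 CPM, while its medians after stroke were 7.65 in controls and 7.55 after ethanol. Gcnt4 had 0.63 and -0.08 (difference -0.72 ± 0.23 SE). Each adjusted p was 0.9999 in edgeR; none passed correction, so the genes without a matching sign after stroke are not shown to respond to the exposure in a way that depends on stroke.

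**Figure D5:**
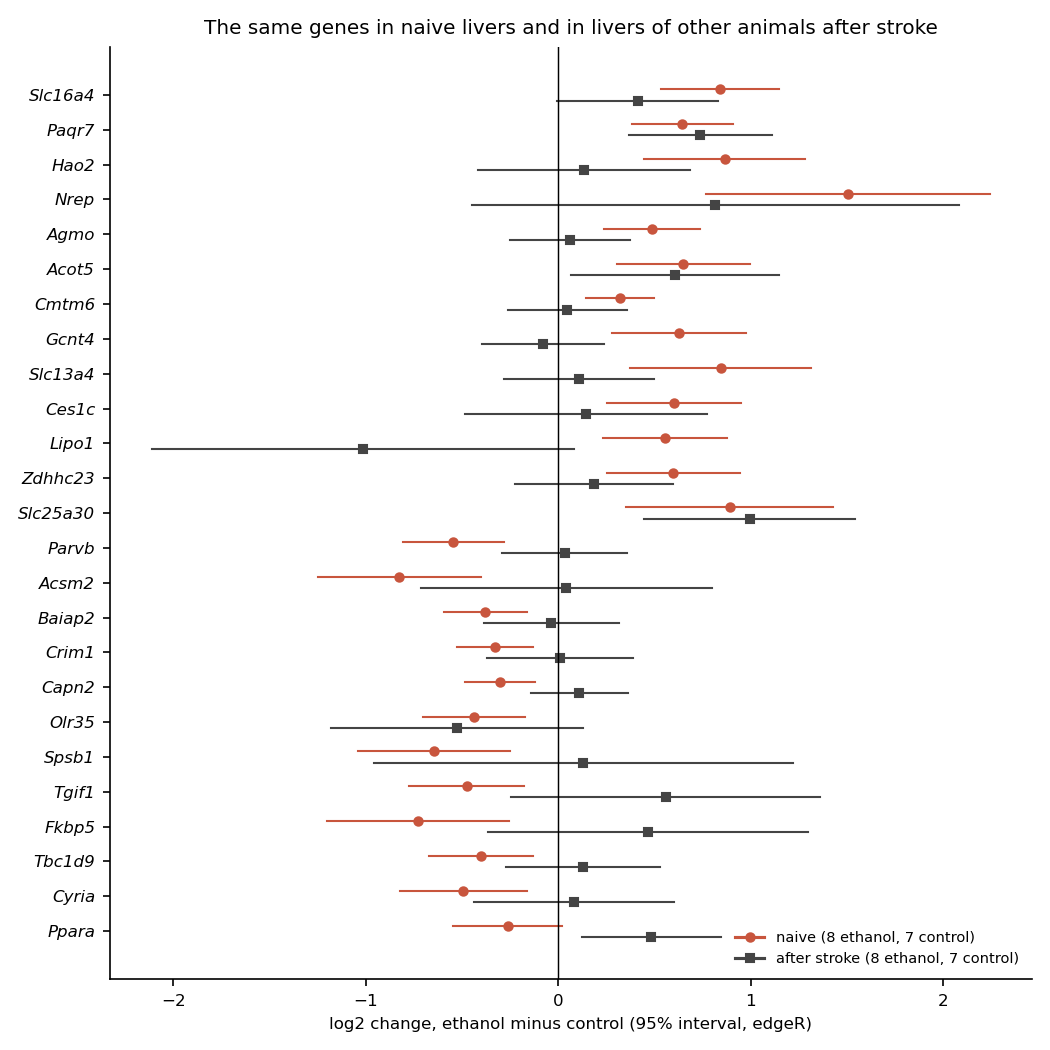
Log2 change (ethanol minus control) with its 95% interval in edgeR for 25 named genes, in naive livers (circles) and in the livers of other animals after stroke (squares). Paqr7, Acot5 and Slc25a30 have intervals above 0 in both, and most genes chosen for the naive livers have stroke intervals that include 0.

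In naive mesenteric fat edgeR called 0 of 17504 genes (1169 at an unadjusted p under 0.05, 6.68%, with 3.79% higher and 2.89% lower) and DESeq2 called 9 (0.0514%). Fkbp5 had a log2 change of -0.54 ± 0.22 SE there (edgeR adjusted p = 0.725), Slc25a30 0.50 ± 0.27 SE, Paqr7 0.19 ± 0.14 SE and Slc16a4 -0.22 ± 0.11 SE. The titles give the naive fat the same animal codes as the naive livers. Both tissues may therefore come from the same animals, and the fat is not read as a separate set of animals. The difference between tissues was not tested.

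Females and males were compared directly by the exposure by sex term. It called 0 of 15551 genes in edgeR and 0 in DESeq2, with 539 (3.47%) at an unadjusted p under 0.05. Fits on the 8 female or the 7 male livers alone called 0 genes each, with 647 and 431 at an unadjusted p under 0.05.

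The precision of the comparison sets what could be seen. Among the 12251 better expressed genes, the median SE of the log2 change was 0.14 (quartiles 0.11 and 0.19) and the median half-width of the 95% interval 0.29. For 77.6% of these genes the interval lay wholly within a 1.5-fold change in either direction, and for 95.6% within a 2-fold change. To be called on its own among 15551 genes in edgeR, a gene needed an unadjusted p of 3.22e-06. At the median SE that is a log2 change of 0.91, or 1.88-fold. At that SE, edgeR could not call a smaller difference in a lone gene at this number of animals, which does not show that it was absent. This limit belongs to the edgeR fit: in the same livers DESeq2, which adjusted over fewer genes, called Paqr7 at a log2 change of 0.64 ± 0.13 SE.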

How the data were processed

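The members and gene lists were chosen with earlier results of these data known. Per the labels' protocols, total RNA of flash-frozen tissue was depleted of ribosomal RNA, prepared with a stranded kit and sequenced as read pairs on a NovaSeq. Per the submitters' processing notes, Trimmomatic, HISAT2, HTSeq and DESeq2 were used with the rn7 build; versions and settings are not given in the sources used here. The authors deposited raw counts per gene for each library, for 34322 genes, of which 27234 matched a RefSeq symbol. The authors' deposited table of the same comparison gives a mean normalised signal (not used), a log2 fold change with its standard error, and a p-value with its adjusted value. 90 columns of normalised values per sample were not used.

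Ribosomal RNA genes (76 nuclear, of which 18 had counts, and 2 mitochondrial) were left out before scaling, so depth after that step was 6.226 to 28.69 M counts per library (M, mega). Genes were filtered with filterByExpr, scaled by TMM and tested with edgeR 4.0.16 (quasi-likelihood F-test, R 4.3.3, limma 3.58.1), with exposure and sex as terms and Benjamini-Hochberg adjustment over all genes tested; a call was an adjusted p under 0.05. Log2 CPM used a prior count of 2. DESeq2 1.42.0, RLE scaling, other filters, ribosomal RNA kept, other designs, each sex alone and leaving out each library were the alternatives. The code was tested on simulated data.

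Genes were named by a rule: called genes if at most 24; the 12 higher and 12 lower direction-consistent genes with the smallest p at a mean log2 CPM of 1 or more; the member of each pathway list with the smallest p; 20 set genes, of which 1 is not reported here; and the separated genes. Library measures were compared by exact permutation within sex. Library pairs within groups all differed beyond counting noise (21 pairs, chi-square per degree of freedom 22.3 to 64.2), so each counted as 1 replicate.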

Additional observations from a re-analysis of the deposited data

Results flagged for a closer look

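In 10 of 237 groups tested, 1 liver lay far from the other 3 of its group, measured as its gap to the nearest of them over the range of the group (0.829 or more); chance gives about 1 in 20. Values are log2(CPM + 0.5) unless stated, and no cause was tested.

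Control female 2 gave 3 of these. Its depth was 7.72 M counts against 17.3 to 17.8 M (ratio 0.949). Its Cyp2d5, a drug-metabolizing cytochrome, was 9.25 against 8.07 to 8.26 (0.841), and its Hp, haptoglobin of the acute phase, 11.1 against 11.8 to 11.9 (0.911). Cyp2d5 had a log2 change of -0.45 over all livers, so this control liver contributed to it.

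Ethanol male 2 gave 3. Its C6, a complement component, was 5.82 against 7.43 to 7.54 (0.936), its Oas3, an interferon-induced enzyme, -0.233 against 1.9 to 2.12 (0.905), and LOC120096258 1.26 against 1.07 to 1.09 (0.881).

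The other 4 fell in 4 livers. Ces1c in control female 1 was 9.94 against 9.15 to 9.16 (0.985). Zdhhc23 in ethanol female 1 was 3.56 against 3.94 to 4.01 (0.857). Birc5, of cell division, in ethanol male 3 was 0.873 against -0.154 to -0.0128 (0.862). Aldh2 in ethanol male 4 was 9.33 against 9.75 to 9.78 (0.92).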

How the results depend on the processing

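The count of 0 called genes in edgeR became 4 with DESeq2, 1 without the filter on low counts and 2 when naive and stroke livers were averaged; the remaining designs, scalings and filters gave 0. Leaving out 1 liver at a time gave 0 to 1 calls, the 1 being Slc16a4 without ethanol female 3, and 516 to 753 genes at an unadjusted p under 0.05. That count, 616, was 398 without a sex term, 352 with all 30 livers in 1 fit and 1011 without the filter. DESeq2 called 1 gene in stroke livers and 9 in naive fat. RLE scaling left 428 direction-consistent genes in place of 441. No liver went against the sex read from its title, so that alternative had none to leave out.

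Replicate numbers did not pair the animals: over 7 pairs the correlation of deviations was -0.343 to 0.319, 2 were over 0.1, and 1 library matched its own number best. With a replicate block edgeR called 0 genes (579 unadjusted), and the log2 changes of these turned sign: Aldh2 0.004013, Fasn 0.08032, Scd -0.20, Hp -0.00769 and Lcn2 -0.76.

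Sign also turned in genes that passed no test; the cause was not tested. Scd was -0.19 without a sex term, -0.001392 with 4 group means and -0.18 with DESeq2 on unfiltered counts. Without control male 3, the liver over 40% ribosomal RNA, Adh1 was 0.073 and Scd -0.042. In females alone Adh1 was 0.36, Hp -0.012 and Lcn2 -0.14. In males alone Tat was 0.14, Cd74 0.01038, Scd -0.87, Igfbp1 0.19 and Ccnd1 -0.047. Averaged over naive and stroke livers, Lipo1 was -0.25, Tgif1 0.059, Pmvk 0.031, Clock -0.012, Scd -0.35, Pck1 0.10, G6pc1 0.21, Igfbp1 0.22 and Ppara 0.11. Without control female 2 and ethanol male 2, Fasn was 0.30. Leaving out 1 liver moved Adh1 from -0.20 to 0.073, Aldh2 from -0.085 to 0.038, Cyp7a1 from -0.11 to 0.98, Fasn from -0.40 to 0.17, G6pc1 from -0.42 to 0.22, Hp from -0.002177 to 0.15, Igfbp1 from -0.39 to 0.058, Lcn2 from -0.87 to 0.50 and Scd from -0.24 to 0.33.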
